A study of Homo sapiens with 6 samples.

Results

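Levels of 10 named genes of the YAP and TEAD pathway were taken from RNA sequencing of the human ovarian cancer line OVCAR8. They are the coactivators YAP1 and WWTR1 (the TAZ gene), the transcription factors TEAD1 and TEAD4, the target genes CCN1, CCN2, ANKRD1 and AMOTL2, the kinase LATS2, and AJUBA, which binds LATS kinases. All 10 were found by symbol among the 38637 genes of the deposited table, and all 10 were among the 16178 that passed a filter on low values. The study treated wild type OVCAR8 cells with DMSO, the solvent, or with pladienolide B, an inhibitor of the splicing factor SF3B1, at 2 nM. Both groups were collected after 72 h, each with 3 samples, so that the comparison asks how treatment with this inhibitor changed reads per gene. Reads per gene do not tell correctly spliced from unspliced or wrongly spliced RNA. The 1 cell line is the only model, and nothing in the labels says whether the 3 samples of a group were separate cultures, so p-values measure the spread between these samples, which may be technical.

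The Hippo pathway is a kinase cascade that restrains organ growth and responds to cell contact, cell shape and matrix stiffness. Its last kinases, LATS1 and LATS2, phosphorylate YAP and TAZ, which are then held in the cytoplasm or degraded. Unphosphorylated YAP and TAZ enter the nucleus, where they bind no DNA themselves and act through the TEAD factors. Because control acts mainly on protein phosphorylation and location, transcript levels of YAP1 and WWTR1 are not a measure of YAP activity, and target genes such as CCN1 and CCN2 are commonly read instead. Those targets also answer to other factors, among them AP-1, SRF and SMAD proteins.

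Between 22621338 and 26130882 whole reads on genes were recovered per sample. Values are given as adjusted reads, that is, reads per gene brought by the authors to a common library size. Correlations between replicates on the log2 scale lay between 0.992 and 0.994. DMSO replicate 2 stood further from the other DMSO samples than they did from each other, with a chi-square per gene of 7.34 and 7.25 against 2.01, where counting error alone gives about 1. Results that change without a sample are given with that value. Of the 7 ovarian epithelial markers 3 passed the test described below, against 47.6% of all tested genes. KRT8 and KRT18 rose, by 0.27 and 0.29 on the log2 scale, and KRT7 was lower, with a log2 fold change of -0.64. EPCAM, which did not pass, had 477 ± 31.6 adjusted reads in DMSO and 445 ± 16.1 in pladienolide B (SD, n = 3). PAX8, the Mullerian lineage factor, had 4108 ± 84.6 adjusted reads in DMSO and 4341 ± 216 in pladienolide B (SD, n = 3), while MUC16 and WT1 were low, with means from 18.0 to 22.9. The 4 immune markers summed in DMSO to between 37.5 and 44.3 adjusted reads and in pladienolide B to between 37.6 and 54.0, with CD3E at 0 reads throughout and PTPRC, the leukocyte marker CD45, at 0 to 2. The 3 endothelial markers summed to between 45.8 and 71.5, and to between 59.7 and 90.2 after treatment. The 4 fibroblast markers summed to between 6927 and 7104 in DMSO and between 5813 and 6516 in pladienolide B, nearly all of it COL1A1. DCN had 0 reads in DMSO. COL1A1 and PDGFRB, the 2 fibroblast markers high enough to be tested, both passed the test and were lower, with log2 fold changes of -0.21 and -0.34. The part of these marker differences in the results below was not tested.

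TEAD factors bind a short motif, CATTCC on one strand and GGAATG on the other. The upstream sequences of CCN2 and ANKRD1 are shown because these targets were higher after treatment and hold more than 1 copy of the motif. Sequences are from RefSeq on GRCh38.p14, read 5′ to 3′ on the gene's own strand, and capitals mark the TEAD motif on either strand. CCN2 is shown from chr6:131951373-131951622 and ANKRD1 from chr10:90921088-90921337, both on the - strand and both ending at the base before the annotated start site.
CCN2: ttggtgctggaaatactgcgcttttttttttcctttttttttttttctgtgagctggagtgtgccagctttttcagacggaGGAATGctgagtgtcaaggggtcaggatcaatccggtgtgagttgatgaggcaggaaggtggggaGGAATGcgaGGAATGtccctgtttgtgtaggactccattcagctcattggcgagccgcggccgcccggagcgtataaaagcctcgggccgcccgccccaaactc
ANKRD1: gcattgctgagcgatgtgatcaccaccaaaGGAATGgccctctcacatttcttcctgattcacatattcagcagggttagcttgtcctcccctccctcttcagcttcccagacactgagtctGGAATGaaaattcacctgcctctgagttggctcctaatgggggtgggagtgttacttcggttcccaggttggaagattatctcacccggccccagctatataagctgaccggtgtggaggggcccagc
The CCN2 copies began 169, 104 and 95 bases before the start site, the last 2 of them 3 bases apart. The ANKRD1 copies began 220 and 128 bases before it, with an AP-1 motif (TGANTCA) between them at 195 bases before it.

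Windows of 300 bases, 250 before to 50 after a start site, were matched for 7 of the 10 genes, namely YAP1, WWTR1, CCN2, ANKRD1, AMOTL2, AJUBA and LATS2, not for TEAD1, TEAD4 and CCN1. These 7 genes had 10 windows, and 6 windows held the TEAD motif, against 14% of all 35116 promoter windows of that length. An AP-1 motif was in 1 of the 10, against 7.71% of all windows, and the SRF CArG box was in 0, against 1.29%. Single copies of the TEAD motif in YAP1, AMOTL2, AJUBA and LATS2 are shown with their surroundings, 30 bases each, because they show that the motif was present in genes that rose, fell or did not pass the test. They lie at chr11:102110273-102110302 on the + strand for YAP1, and on the - strand at chr3:134374499-134374528 for AMOTL2, chr14:22976884-22976913 for AJUBA and chr13:21061560-21061589 for LATS2.
YAP1: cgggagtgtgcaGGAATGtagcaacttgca
AMOTL2: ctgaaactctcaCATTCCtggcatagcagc
AJUBA: gggaagttggctGGAATGaagccaaagcaa
LATS2: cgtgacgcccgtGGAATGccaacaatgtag
AMOTL2 and AJUBA have 2 windows each, and in both genes the motif was in 1 of them. In both, that window lay at a start site inside the gene, and the window at the start of the annotated gene held no TEAD motif. The LATS2 copy began 9 bases after the start site. A match describes the letters only and is not evidence of binding.

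**Figure D1:**
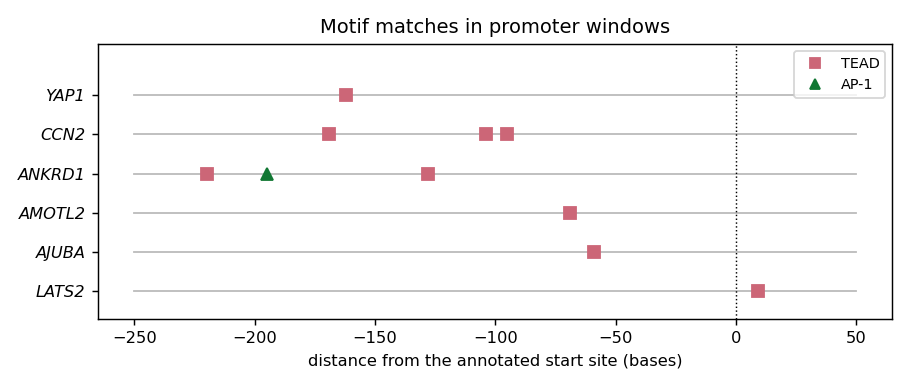
Position of TEAD motif (red squares) and AP-1 motif (green triangle) matches on either strand, in bases from the annotated start site (dotted line), over windows of 300 bases. CCN2 has 3 TEAD matches and ANKRD1 has 2, and the other 4 genes have 1 each. For AMOTL2 and AJUBA the match is in the window of a start site inside the gene, not in that at the start of the annotated gene.

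Most of the 10 genes were higher by small amounts after pladienolide B, and 1 was clearly lower. YAP1, WWTR1, TEAD1, CCN1, CCN2, ANKRD1 and LATS2 were higher, AJUBA was lower, and TEAD4 and AMOTL2 did not pass the test. By limma on log2(adjusted reads + 1), with Benjamini-Hochberg adjustment over all 16178 genes and a threshold of 0.05, 8 of the 10 passed, against 47.6% of all tested genes. The 7 that were higher compare with 22.4% of all tested genes, and the 1 that was lower with 25.2%. The 2 groups did not overlap for 9 of the 10, against 55.3% of all tested genes. Their median log2 fold change was 0.16, against -0.0042 over all tested genes, and none of the 10 changed 2-fold. The median size of change over all tested genes was 0.23 on the log2 scale, above that of YAP1, TEAD1, TEAD4, ANKRD1 and AMOTL2. Mean levels of CCN1, AMOTL2, YAP1, TEAD1, ANKRD1, AJUBA and CCN2 were above those of 93.6% (CCN2) to 99.9% (CCN1) of tested genes. WWTR1, LATS2 and TEAD4 lay between 62.9% and 79.6%. The shares were not compared with genes of like level. Because the 10 genes were chosen with earlier results of these data known, the shares and the median describe these genes only. They do not test a shift of the pathway. Without the trend of variance on expression in limma only 5 of the 10 passed, with YAP1, TEAD1 and ANKRD1 lost. That setting also passed fewer of all 16178 genes, 6381 against 7695.

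**Figure D2:**
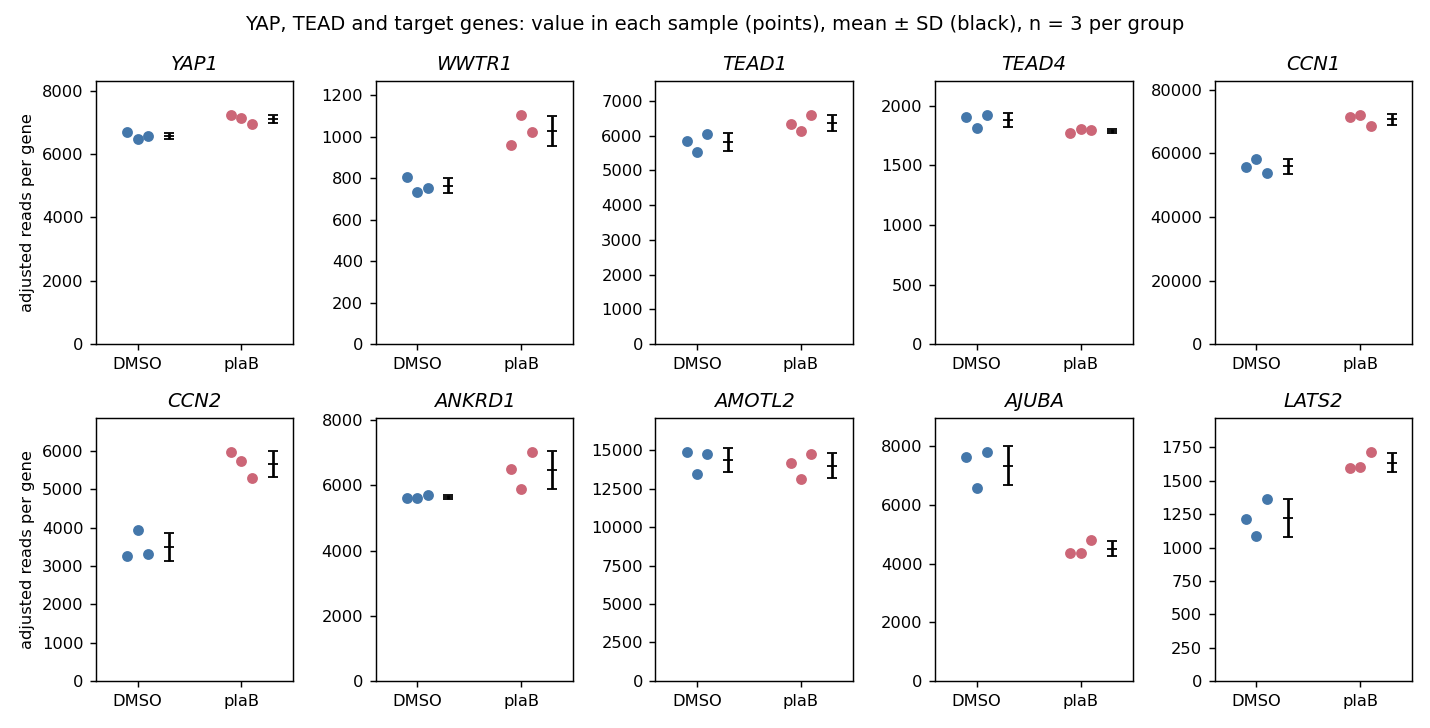
Adjusted reads per gene in each sample (points; DMSO blue, pladienolide B, plaB, red) with mean ± SD in black, n = 3 per group, on axes that start at 0. CCN2 and AJUBA show the widest separation, and AMOTL2 is the only gene whose groups overlap.

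YAP1 encodes the coactivator that gives the pathway its readout and lies on chromosome 11, + strand, from 102109957 to 102233424 (hg38). It had 6681, 6473 and 6555 adjusted reads in DMSO replicates 1 to 3 and 7217, 7128 and 6955 in pladienolide B replicates 1 to 3. Every pladienolide B sample was above every DMSO sample, by a small margin. The log2 fold change was 0.11 (standard error, SE, 0.04, 95% confidence interval 0.03 to 0.19, limma adjusted p = 0.025), a fold change of 1.08. The limma adjusted p rose to 0.11 without pladienolide B replicate 1, 0.066 without replicate 2 of that group and 0.071 without DMSO replicate 3. Each of these fits has 1 sample fewer. The call was thus near the threshold, while the log2 fold change stayed between 0.10 and 0.13 with each sample left out.

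WWTR1 encodes TAZ, the paralogue of YAP, and lies on chromosome 3, - strand, from 149517235 to 149724788. Its values were 804, 736 and 754 adjusted reads in DMSO and 960, 1104 and 1025 in pladienolide B. The groups were apart, with the lowest treated sample above the highest control. WWTR1 rose by 0.43 on the log2 scale (SE 0.07, limma adjusted p = 4.3e-05), a fold change of 1.34. WWTR1-AS1, a long noncoding RNA on the opposite strand, overlaps it and had 0 to 10 reads per sample, 0.329% of the WWTR1 level.

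The ratio of both coactivator genes within a sample, which needs no scaling between libraries, was lower after treatment. There were from 8.31 to 8.80 YAP1 reads for each WWTR1 read in DMSO and from 6.46 to 7.52 after treatment, with no overlap. The log2 ratio changed by -0.32 (SE 0.07), from 3.10 ± 0.044 to 2.79 ± 0.11 (SD, n = 3). The exact two-sided permutation test gave p = 0.1, which is the smallest that 3 against 3 samples allow, and 0.1 after adjustment over the 4 gene pairs compared. Per kilobase of transcript, too, YAP1 had the higher level in both groups.

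The TEAD genes encode the DNA-binding partners. TEAD1, on chromosome 11, + strand, from 12674421 to 12944737, had 5842, 5541 and 6057 adjusted reads in DMSO and 6349, 6135 and 6587 in pladienolide B. Its lowest treated sample was only just above its highest control. The log2 fold change was 0.13 (SE 0.04, limma adjusted p = 0.024), with an adjusted p of 0.052 without DMSO replicate 1, 0.067 without pladienolide B replicate 1 and 0.11 without pladienolide B replicate 3.

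TEAD4, on chromosome 12, + strand, from 2959397 to 3040676, had 1902, 1810 and 1919 adjusted reads in DMSO and 1769, 1802 and 1799 in pladienolide B. Its log2 fold change was -0.07 (95% confidence interval -0.17 to 0.03, limma adjusted p = 0.25). Both other family members missed the threshold too. TEAD2 went from 358 ± 33.0 to 305 ± 28.1 adjusted reads and TEAD3 from 1190 ± 73.4 to 1290 ± 58.0 (SD, n = 3), with adjusted p-values of 0.063 and 0.11 by limma.

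The ratio of TEAD1 to TEAD4 reads ran from 3.06 to 3.16 in DMSO and from 3.40 to 3.66 after treatment, higher in all 3 treated samples. The log2 ratio differed by 0.20 (SE 0.03) with p = 0.1 by the exact permutation test, again the smallest possible. Per kilobase of canonical transcript, TEAD4 made up 48.2% ± 0.717 of the level of the TEAD family in DMSO and 45.6% ± 0.843 in pladienolide B (SD, n = 3). TEAD1 made up 27.1% ± 0.066 and 29.4% ± 0.717 on the same scale. Ranges of both shares did not overlap between the groups. Shares per length rest on the GENCODE canonical transcripts, 9417 bases for TEAD1 and 1710 for TEAD4, and would change with other transcript models.

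**Figure D3:**
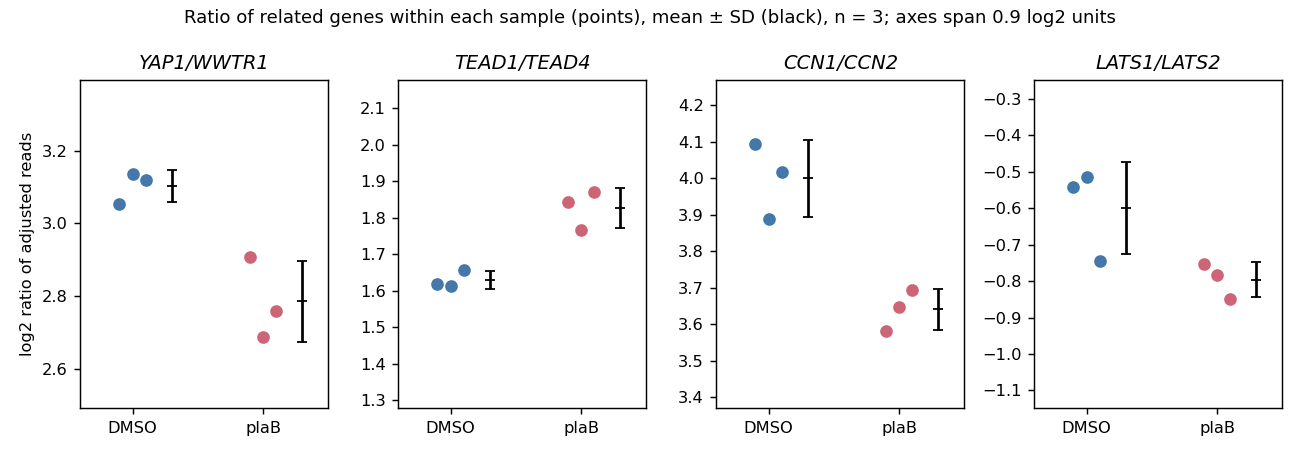
Log2 ratio of adjusted reads of related genes within each sample (points; DMSO blue, pladienolide B, plaB, red), with mean ± SD in black, n = 3. The groups do not overlap for any of the 4 pairs, for LATS1/LATS2 only just (lowest DMSO ratio 0.597, highest pladienolide B ratio 0.593). Of all tested single genes 55.3% had groups without overlap, and the share over gene pairs was not computed. Each axis spans 0.9 log2 units around its own centre.

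CCN1 and CCN2 encode secreted matricellular proteins and are the most used readouts of YAP and TEAD. CCN1, on chromosome 1, + strand, from 85580761 to 85583950, had 55690, 58161 and 53746 adjusted reads in DMSO and 71562, 71942 and 68700 in pladienolide B. The treated samples lay well above the controls. CCN1 rose by 0.34 on the log2 scale (SE 0.04, limma adjusted p = 8.4e-06), a fold change of 1.27. In mean adjusted reads CCN1 was above 99.9% of all tested genes.

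CCN2, on chromosome 6, - strand, from 131948176 to 131951372, showed the largest rise of the 10. It had 3258, 3928 and 3319 adjusted reads in DMSO and 5976, 5737 and 5310 in pladienolide B. DMSO replicate 2 was the highest control, and the lowest treated sample was still far above it. The log2 fold change was 0.70 (SE 0.06, 95% confidence interval 0.57 to 0.83, limma adjusted p = 1.1e-07), a fold change of 1.62. Its upstream sequence with 3 TEAD motifs is shown above. The ratio of CCN1 to CCN2 reads ran from 14.8 to 17.1 in DMSO and from 12.0 to 12.9 after treatment, a log2 difference of -0.36 (SE 0.07) with p = 0.1 by the exact permutation test.

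ANKRD1 encodes an ankyrin repeat protein of the nucleus and the muscle sarcomere, and lies on chromosome 10, - strand, from 90912096 to 90921087. It had 5629, 5610 and 5704 adjusted reads in DMSO and 6517, 5881 and 7025 in pladienolide B. The controls agreed closely while the treated samples spread widely, with replicate 2 only a little above the controls. ANKRD1 rose by 0.19 on the log2 scale (SE 0.05, limma adjusted p = 0.0059). Without pladienolide B replicate 2 the value was 0.26, and without replicate 3 of that group it was 0.13.

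AMOTL2 encodes an angiomotin-like scaffold that binds YAP and holds it at cell junctions, and is itself a YAP target. It lies on chromosome 3, - strand, from 134355345 to 134375417. It had 14892, 13494 and 14795 adjusted reads in DMSO and 14156, 13121 and 14736 in pladienolide B. The groups overlapped, and the log2 fold change was -0.04 (95% confidence interval -0.14 to 0.06, limma adjusted p = 0.54), an interval that leaves out a change of the size seen for CCN1 or CCN2. MIR6827, which lies within it, had 0 to 3 reads per sample.

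LATS2 encodes the kinase that phosphorylates YAP and TAZ, and YAP raises its transcription, which makes it a feedback target. It lies on chromosome 13, - strand, from 20973036 to 21061586. Adjusted reads were 1216, 1083 and 1366 in DMSO and 1593, 1602 and 1716 in pladienolide B, with no overlap. LATS2 rose by 0.43 on the log2 scale (SE 0.07, limma adjusted p = 8.2e-05), nearly the same as WWTR1. Its paralogue LATS1, with 803 ± 40.0 adjusted reads in DMSO and 942 ± 11.2 in pladienolide B (SD, n = 3), rose by 0.23 (SE 0.06, limma adjusted p = 0.0041). The ratio of LATS1 to LATS2 reads lay between 0.597 and 0.700 in DMSO and between 0.555 and 0.593 after treatment, a log2 difference of -0.20 (SE 0.08) with p = 0.1 by the exact permutation test.

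AJUBA was the only one of the 10 that passed the test and was lower. It encodes a LIM-domain adaptor that binds LATS kinases at cell junctions under tension and lowers their activity, and lies on chromosome 14, - strand, from 22971177 to 22982551. It had 7629, 6586 and 7808 adjusted reads in DMSO and 4362, 4362 and 4816 in pladienolide B. The highest treated sample was far below the lowest control, DMSO replicate 2. The log2 fold change was -0.70 (SE 0.06, 95% confidence interval -0.82 to -0.58, limma adjusted p = 5.3e-08), which left 61.5% of the DMSO level. Of its relatives, LIMD1 had a log2 fold change of -0.10 that did not pass the threshold (limma adjusted p = 0.099), while WTIP fell, from 430 ± 26.3 to 326 ± 18.1 adjusted reads (SD, n = 3), by a log2 fold change of -0.40 (SE 0.08, limma adjusted p = 0.00096).

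Per kilobase of canonical transcript, the levels of the 10 genes in DMSO ran from 24524 ± 971 adjusted reads for CCN1 to 152 ± 7.04 for WWTR1 (SD, n = 3). ANKRD1 was next below CCN1 with 3155 ± 28.0, then AMOTL2 with 2957 ± 160 and AJUBA with 1761 ± 158. CCN2 had 1498 ± 159, and AJUBA and CCN2 were the only neighbours in this order whose samples overlapped. Below them came YAP1, TEAD4, TEAD1, LATS2 and WWTR1 in that order. In pladienolide B CCN2, with 2427 ± 144, again stood above YAP1, with 1315 ± 24.7. AJUBA, with 1083 ± 62.9, now stood below both and overlapped TEAD4, with 1047 ± 10.7. The remaining order was the same in both groups.

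The spread between replicates was wider than counting error alone in both groups of every gene but ANKRD1 in DMSO and TEAD4 in pladienolide B. The coefficient of variation of adjusted reads lay between 0.887% (ANKRD1 in DMSO) and 11.6% (LATS2 in DMSO), and the counting error between 0.383% (CCN1 in pladienolide B) and 3.55% (WWTR1 in DMSO). The lowest count behind any value was 730 reads, for WWTR1.

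The other genes commonly regarded as YAP and TAZ targets went both ways. Of 27 such genes, all of them tested, 8 were higher, 13 were lower and 6 did not pass the threshold by limma, where 22.4% of all tested genes were higher and 25.2% lower. Their median log2 fold change was -0.19, against 0.16 for the 10 genes above and -0.0042 over all tested genes. Groups did not overlap for 19 of the 27, against 55.3% of all tested genes. The list was put together from general knowledge of the pathway, but with earlier results of these data known. Many of its genes answer to other signals as well, and its count is a description without a test of the list.

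The largest fall in this list was in EDN1, which encodes the vasoconstrictor endothelin. EDN1 had 627, 779 and 585 adjusted reads in DMSO and 215, 206 and 165 in pladienolide B, with log2 fold change -1.76 (SE 0.11, limma adjusted p = 3e-09). IGFBP3, which encodes a carrier of insulin-like growth factors, went from 8149 ± 461 to 3013 ± 62.8 adjusted reads (SD, n = 3), with log2 fold change -1.43. TGFB2, a transforming growth factor beta ligand, fell from 192 ± 19.5 to 106 ± 5.21 adjusted reads, by a log2 fold change of -0.84. In each of these genes, named for the largest falls called in the list, every treated sample was below every control. Groups did not overlap, in either direction, for 55.3% of all tested genes.

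The largest rises in the list were smaller. AREG, an EGF receptor ligand, had 171, 131 and 156 adjusted reads in DMSO and 249, 239 and 255 in pladienolide B, with log2 fold change 0.70 (SE 0.12, limma adjusted p = 0.00011). NT5E, the ecto-enzyme that makes adenosine, went from 15249 ± 872 to 24334 ± 392 adjusted reads (SD, n = 3), with log2 fold change 0.68. CCND1, which encodes cyclin D1, went from 13878 ± 1139 to 20077 ± 75.5 adjusted reads, with log2 fold change 0.54. The TEAD motif was in 8 of the 22 promoter windows matched for 18 of the 27 genes, in 2 of 4 windows of genes that were higher and 4 of 11 of genes that were lower.

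**Figure D4:**
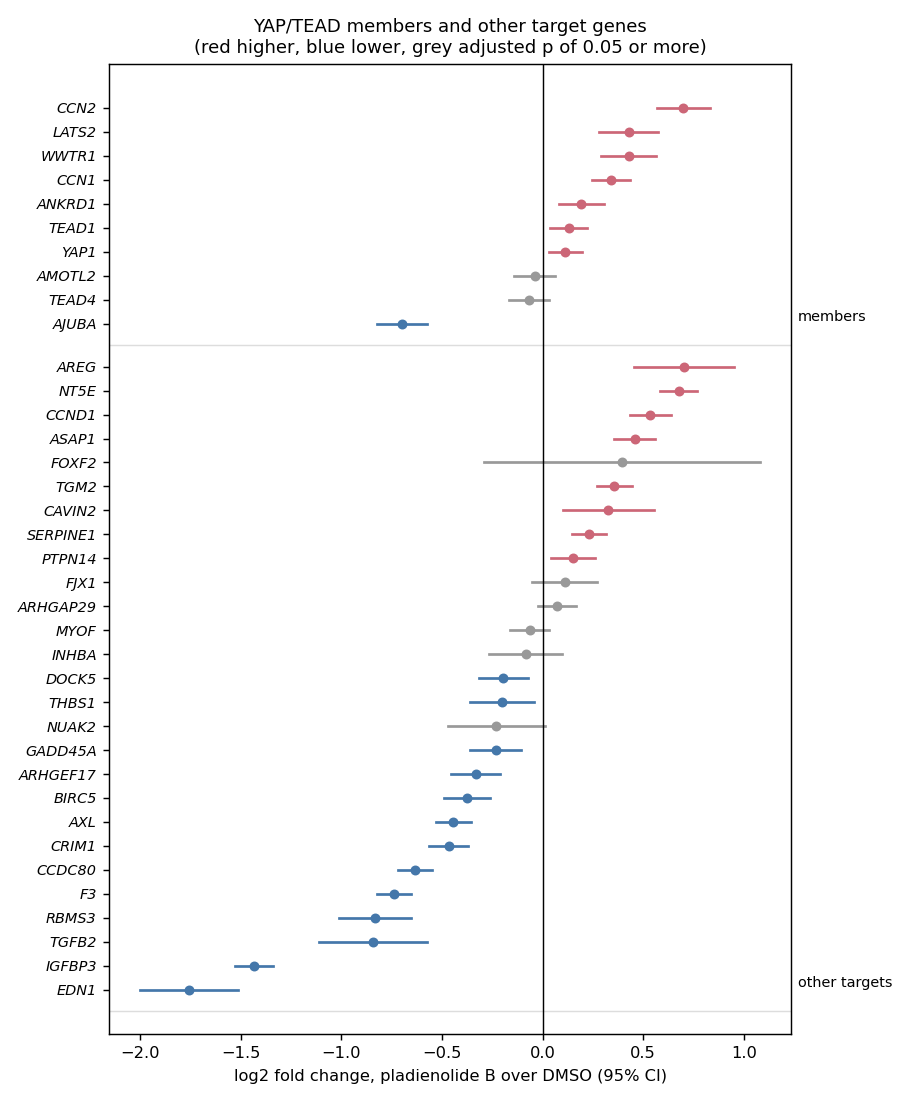
Log2 fold change, pladienolide B relative to DMSO, with its 95% confidence interval by limma for the 10 genes (top) and 27 other target genes (bottom), each ordered by size. Values of the upper set lie between -0.70 and 0.70, and the lower set runs from EDN1 at -1.76 to AREG at 0.70, with 13 genes lower and 8 higher.

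Upstream of YAP, the kinases and adaptors of the Hippo pathway went both ways. Of 22 genes, 8 were higher and 6 lower by limma, where 22.4% of all tested genes were higher and 25.2% lower. Their median log2 fold change was -0.020. STK3, a kinase that activates LATS, had 1137, 1173 and 1047 adjusted reads in DMSO and 846, 850 and 831 in pladienolide B, with log2 fold change -0.41 (SE 0.06, limma adjusted p = 2.6e-05). Its paralogue STK4 had a log2 fold change of 0.10 (limma adjusted p = 0.09), and was named after its value was seen. WWC1, the scaffold KIBRA, fell from 5376 ± 106 to 4282 ± 241 adjusted reads (SD, n = 3), by a log2 fold change of -0.33.

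DCHS1, a giant cadherin, rose by 0.39 on the log2 scale (SE 0.08, limma adjusted p = 0.00076). AMOTL1, the paralogue of AMOTL2, rose from 4135 ± 132 to 5134 ± 110 adjusted reads (SD, n = 3), by 0.31. NF2, the tumour suppressor merlin that brings LATS to the membrane, rose by 0.31 too (SE 0.09, limma adjusted p = 0.0079), from 327 ± 26.9 to 404 ± 19.7 adjusted reads. Each of these genes had groups that did not overlap, as had 55.3% of all tested genes. They were named for having the largest rises called in their list.

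VGLL1 and VGLL2 were too low to be tested, and TEAD2, TEAD3, VGLL3 and VGLL4 did not pass the threshold. By limma 0 of these 4 tested genes were thus called, against 47.6% of all tested genes. Only 1 of the 4 (TEAD2) had an unadjusted p under 0.05, as had 8716 of all 16178 tested genes. The quasi-likelihood test of edgeR and DESeq2 on recovered reads called 0 of the 4 too. Leaving out DMSO replicate 2, DMSO replicate 3 or pladienolide B replicate 3 called 1 each. VGLL4, which competes with YAP for TEAD, had 1120 ± 15.9 adjusted reads in DMSO and 1159 ± 41.3 in pladienolide B (SD, n = 3), with log2 fold change 0.05 and a 95% confidence interval of -0.06 to 0.16.

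Of 13 genes for the retention and turnover of YAP and TAZ, 4 were higher and 2 lower by limma, so that 6 of the 13 were called, a share near the 47.6% of all tested genes. BTRC, the ubiquitin ligase subunit that recognises phosphorylated YAP and TAZ, had a log2 fold change of 0.15 (limma adjusted p = 0.045), a call lost without 5 of the 6 samples in turn, all but pladienolide B replicate 3, with adjusted p-values from 0.053 to 0.16. YWHAB and YWHAE, which encode phosphoserine-binding proteins that hold YAP in the cytoplasm, rose by 0.14 and 0.13 on the log2 scale. YWHAB lost its call without DMSO replicate 3 (adjusted p = 0.052), and YWHAE without DMSO replicates 1 or 3 or pladienolide B replicates 1 or 2, with adjusted p-values from 0.061 to 0.12 by limma. SFN, an epithelial protein of the same family, fell by 0.25 on the log2 scale (limma adjusted p = 0.0002) and CUL1, the cullin of the ligase, fell by 0.23 (limma adjusted p = 0.0012).

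**Figure D5:**
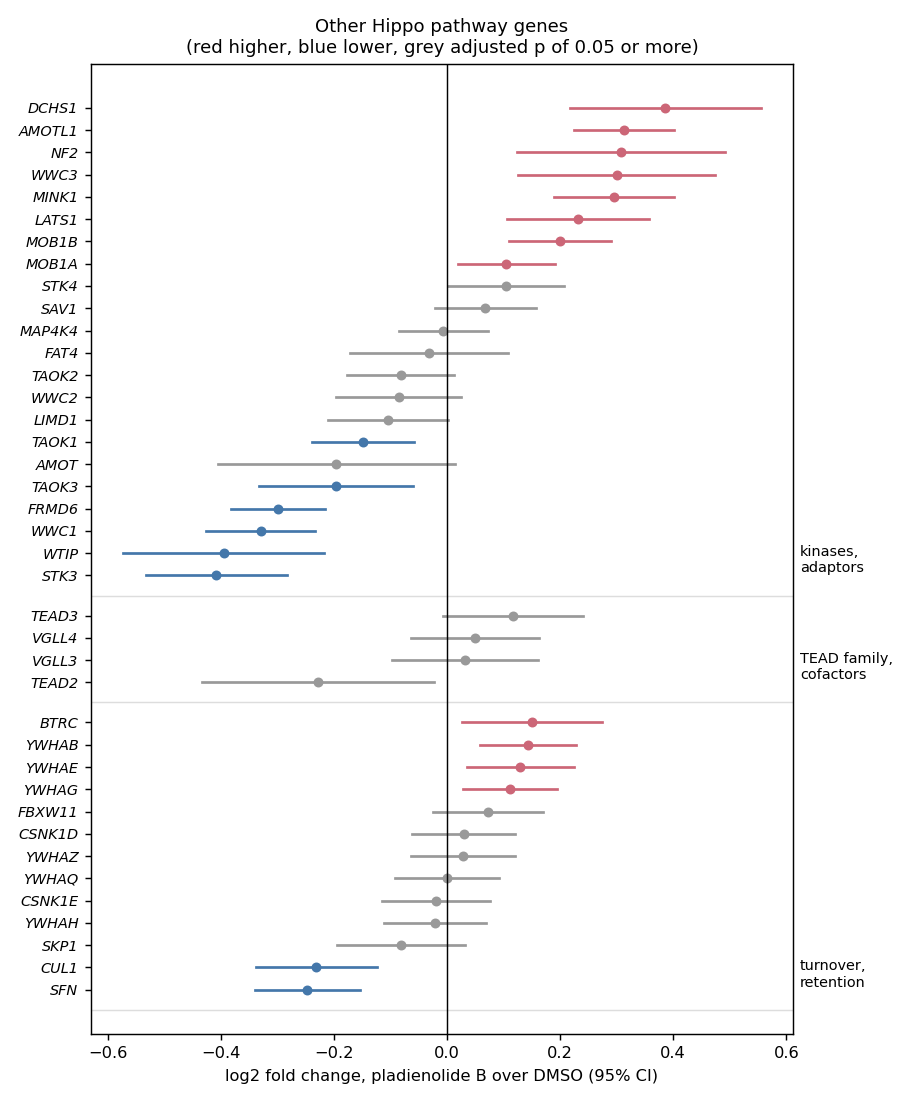
Log2 fold change, pladienolide B relative to DMSO, with its 95% confidence interval by limma for Hippo pathway kinases and adaptors (22 genes), TEAD family members and cofactors (4 tested genes) and turnover and retention genes (13 genes). Values lie between -0.41 for STK3 and 0.39 for DCHS1.

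Among 13210 other genes with a mean of at least 50 adjusted reads, those closest to YAP1 across the 6 samples were KIFC3, NCK2 and GIGYF2. The root mean square difference of their centred log2 values from those of YAP1 was 0.0071, 0.0087 and 0.0099. For CCN2 the closest were PUM3, KITLG and C1orf109, with 0.046, 0.047 and 0.048. The nearest genes to CCN2 were thus further from it than those to YAP1, whose own variation was smaller. The measure is over 6 samples of 2 groups only. Since the RNA came from whole cultures, fewer cells of a kind and less RNA per cell cannot be told apart for any of these genes.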

How the data were processed

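Poly(A) RNA of 3 DMSO and 3 pladienolide B samples was sequenced. The study's methods state alignment to hg38 with hisat2, and the submitters' processing notes name HISAT2, HTSeq 0.12.4, DESeq2 and hg19. Positions in the table overlapped GENCODE v44 on hg38 for 99.9% of 26990 shared symbols, so hg38 was used. Strand assignment is not given in the sources used here. The values the authors deposited are a signal, reads per gene adjusted for library size. They were found to equal edgeR's quantile-adjusted counts with a dispersion of 0.0027. Undoing it returned whole reads, to a tolerance of 0.02, for 100% of the 96432 entries at or above 10, and adjusting these reads again returned the table to within 4.9e-05. Columns of the comparison by the authors (log2 fold change, p-value and q-value per gene) were not used.

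Groups were compared with limma 3.58.1 on log2(value + 1), with a trend of variance on expression and no covariate, two-sided, over the genes kept by filterByExpr of edgeR 4.0.16 at its minimum count of 10. The pseudocount understates changes of low genes. Scripts were tested on simulated data. Alternatives were edgeR's quasi-likelihood test and DESeq2 1.42.0 on recovered reads, pseudocounts of 0.1 and 5, no filter or at least 10 in every sample, no variance trend, a replicate block and leaving out each sample. The genes and lists were chosen with earlier results of these data known. Named from each list were up to 3 called genes with the largest rise and 3 with the largest fall at a mean of at least 50, and for YAP1 and CCN2 the 3 genes closest to each across samples. LATS1, TEAD2, TEAD3, VGLL4, LIMD1, STK4, EPCAM and PAX8 with the low or absent markers were named after their values were seen.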

Additional observations from a re-analysis of the deposited data

How the results depend on the processing

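Of 405 values of the 27 single genes tried under alternatives, 378 kept their direction and side of the threshold, 26 no longer passed it and 1 changed sign. The sign change was AMOTL2, which did not pass the test in any setting and had a log2 fold change of 0.0064 without pladienolide B replicate 2 and -0.086 without DMSO replicate 2. WWTR1, CCN1, CCN2, AJUBA and LATS2 passed in all 15 alternatives, with CCN2 between 0.65 and 0.79 and AJUBA between -0.78 and -0.65. YAP1 passed in 10, TEAD1 in 11 and ANKRD1 in 14. The number of the 10 genes called was 5 without the variance trend in limma, where 6381 of all tested genes were called against 7695. The cause was not tested. With each sample left out it was between 6 and 8 of the 10. With each sample left out, the counts were 18 to 23 for the other targets, 14 to 21 for Hippo pathway genes and 6568 to 7836 over all genes, against 21, 20 and 7695. The log2 ratio differences then lay between -0.38 and -0.27 for YAP1 to WWTR1, 0.18 and 0.23 for TEAD1 to TEAD4, -0.42 and -0.31 for CCN1 to CCN2, and -0.27 and -0.15 for LATS1 to LATS2. Across settings the median of all genes moved by at most 0.029.

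Samples with the same replicate number showed no shared deviation. Deviations of same-numbered samples correlated between -0.018 and 0.0026, and no DMSO sample correlated best with the pladienolide B sample of its own number. Whether same-numbered samples were paired when the cells were treated is not given, and these correlations cannot tell. With the replicate number as a block 7 of the 10 genes were called, YAP1 being lost at an adjusted p of 0.051 by limma, and 7349 genes in all.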
